A study of Homo sapiens with 6 samples.

Results

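The sirtuins are the 7 human genes SIRT1 to SIRT7, and they were examined here in bulk RNA-seq of HK-2, a human cell line that was immortalized from the proximal tubule of the kidney. They were matched in the files by gene name, which gave 8 of the 38648 listed genes and gene copies, since SIRT2 is listed both on chromosome 19 and on an alternate scaffold. All 6 libraries came from cells that had been irradiated with X-rays (8 Gy) and collected on day 7. They differed in the lentivirus that the cells carried, which was a negative control in IR+NC-LV (n = 3) and PRDM16 in IR+PR-LV (n = 3). Infected cells were selected with puromycin, and unirradiated or uninfected cells were not analysed here. The libraries are numbered 1 to 3 in each group, but nothing states that they came from separate cultures, so the p-values measure only the spread between these libraries.

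Sirtuins remove acetyl and other acyl groups from lysine residues of proteins and use up NAD+ in each reaction, which ties their activity to the energy state of the cell. The mRNA level of a sirtuin, or of a protein that it modifies, does not measure that activity. SIRT1, SIRT6 and SIRT7 are mainly nuclear, SIRT2 is mainly cytoplasmic, and SIRT3, SIRT4 and SIRT5 work in mitochondria. In the kidney tubule they are known for roles in mitochondrial function, DNA repair and stress resistance, and SIRT1 and SIRT6 are widely studied in aging and senescence.

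Total counts ran from 13407074 to 28540041 per library, with a median of 17834642. PRDM16 itself had 2, 0 and 1 counts with the control virus against 14, 10 and 8 with the PRDM16 virus. These counts are low in both groups, so the size of the difference is known only roughly. Of 12 markers of the proximal tubule only 6 had enough counts to be tested, and the endocytic receptor gene LRP2 had 3 counts in all 6 libraries together. The transporter gene SLC22A6 had 1 count, while GGT1 of the same list had 7210, MME 1018 and AQP1 280. All 6 epithelial markers were tested. In CPM of the total counts, the markers of the proximal tubule summed to 79.5 to 83.9 in IR+NC-LV libraries and to 63.5 to 80.2 in IR+PR-LV libraries, and the epithelial markers to 1139 to 1215 and 1122 to 1414. Of the markers of other cell types, 0 of 6 endothelial, 2 of 6 leukocyte and 4 of 7 fibroblast genes had enough counts. On the same scale the leukocyte markers summed to 5.28 to 10.3 CPM in IR+NC-LV and, without overlap, to 2.57 to 3.71 CPM in IR+PR-LV, the fibroblast sums were 119.7 to 124.1 and 101.6 to 135.4 CPM, and the endothelial sum never passed 1.42 CPM. The leukocyte difference lay in ITGAM, with 4.17 ± 2.33 and 0.670 ± 0.225 CPM after TMM normalization (SD, n = 3 each), while CD14, the other tested marker, had 2.19 ± 0.454 and 1.98 ± 0.367 CPM and overlapped. All 6 libraries are labelled as HK-2, a cell line, and the labels name no other cell type. The part of other cell types in the sirtuin values was not tested, and in bulk RNA fewer cells of a type and less RNA per cell cannot be told apart. Between the groups, edgeR's quasi-likelihood test was run on the 15340 entries with enough counts, and an adjusted p-value under 0.05 was the threshold. In that test 10 entries passed, which is 0.0652% of those tested. CPM below is the read count scaled to the same library total after TMM normalization, and a log2 fold change above 0 means a higher level in IR+PR-LV.

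SIRT1 had by far the highest level of the family when gene length was taken into account. In TPM, the deposited count per exon base scaled to a fixed total per library, SIRT1 had 63.8 ± 9.77 with the control virus and 51.4 ± 2.71 with the PRDM16 virus (SD, n = 3 each). Only 22.6% of the tested entries had a higher mean TPM than SIRT1. SIRT6 followed with 28.96 ± 2.92 and 27.0 ± 4.67 TPM, and SIRT7 with 18.5 ± 0.807 and 17.9 ± 2.96 TPM (SD, n = 3 each). The ranges of these 3 genes over the 6 libraries did not overlap, so the nuclear sirtuins were ordered SIRT1, SIRT6, SIRT7 on this scale.

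The mitochondrial sirtuins were far lower. SIRT5 had 4.46 ± 0.482 TPM with the control virus and 4.53 ± 0.286 with the PRDM16 virus, and SIRT3 had 4.09 ± 0.118 and 4.29 ± 0.593 TPM (SD, n = 3 each). SIRT5 lay above SIRT3 in 4 of 6 libraries and their ranges overlapped, so these neighbours did not differ beyond their spread. SIRT4 was lowest with 2.23 ± 0.101 and 1.64 ± 0.352 TPM (SD, n = 3 each), below SIRT3 in 6 of 6 libraries. The scaffold copy of SIRT2 ranged from 3.69 to 25.2 TPM, which overlapped the ranges of SIRT6, SIRT7, SIRT5 and SIRT3. The part of the order that rests on SIRT2 is therefore undetermined.

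The order depends on which length a gene is given. The file's length joins the exons of all transcripts and comes to 10558 bases for SIRT5, 5589 for SIRT3 and 3518 for SIRT7. The longest coding transcripts in GENCODE release 29 have 4382, 2543 and 1743 bases. With those lengths the mean over 6 libraries was 62.6 TPM for SIRT1, 36.8 for SIRT7 and 32.3 for SIRT6. The means of SIRT7 and SIRT6 thus changed places, but their ranges overlapped (32.3 to 43.0 and 26.7 to 37.3 TPM). SIRT5 then had 10.8, SIRT3 9.21 and SIRT4 4.33 TPM, in the same order as before.

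SIRT1 deacetylates FOXO factors and the coactivator PGC-1alpha. Its 4451 exon bases lie on the plus strand of chromosome 10, between 67884656 and 67918390 (hg38). It had 82.1, 78.8 and 95.7 CPM in IR+NC-LV replicates 1 to 3, against 69.0, 69.8 and 74.5 CPM in the IR+PR-LV replicates. All 3 IR+PR-LV libraries lay below all 3 IR+NC-LV libraries, although IR+NC-LV replicate 2 and IR+PR-LV replicate 3 were close. The log2 fold change was -0.26 (95% interval -0.45 to -0.076), that is 0.833 times the control level, and the adjusted p-value from edgeR was 0.348. SIRT1 therefore did not pass the threshold, with an unadjusted p-value of 0.0112 in edgeR. An exact permutation test over libraries gave p = 0.1, the smallest that 3 against 3 allow (2-sided). When each library was left out in turn the log2 fold change stayed between -0.32 and -0.18.

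SIRT4, a mitochondrial sirtuin known for repressing glutamate dehydrogenase, was the other gene whose groups did not overlap. Its 2732 exon bases lie on the plus strand of chromosome 12, between 120291780 and 120313249. Its counts were only 32, 38 and 25 with the control virus against 18, 47 and 26 with the PRDM16 virus. These gave 1.91, 1.80 and 1.80 CPM with the control virus against 1.07, 1.68 and 1.41 CPM with the PRDM16 virus, all 3 of the latter lower. The log2 fold change was -0.38 with an interval of -0.87 to 0.11 and an adjusted p-value of 0.58 from edgeR. The interval covers 0.548 to 1.08 times the control level, and with single libraries left out the log2 fold change ran from -0.56 without IR+PR-LV replicate 2 to -0.23 without IR+PR-LV replicate 1.

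SIRT3 is the main deacetylase of the mitochondrial matrix, where SOD2 and IDH2 are among its substrates. The gene lies between 215030 and 236931 on the minus strand of chromosome 11. It had 6.80, 7.31 and 6.62 CPM with the control virus against 8.52, 7.51 and 6.36 CPM with the PRDM16 virus. The IR+PR-LV libraries held both the highest and the lowest value. The log2 fold change was 0.11 (95% interval -0.22 to 0.43, adjusted p = 0.829 from edgeR).

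SIRT5, which removes succinyl, malonyl and glutaryl groups, lies between 13574217 and 13615158 on the plus strand of chromosome 6. It varied least within groups (SD of log2 CPM 0.085), with 13.4, 14.1 and 15.2 CPM with the control virus against 15.1, 14.0 and 15.5 CPM with the PRDM16 virus. The groups overlapped, and the log2 fold change of 0.062 (adjusted p = 0.859 from edgeR) had an interval of 0.894 to 1.22 times the control level.

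SIRT6, a chromatin-bound deacetylase with roles in DNA repair and telomere maintenance, lies between 4174109 and 4182563 on the minus strand of chromosome 19. It had 15.6, 16.6 and 17.6 CPM with the control virus against 19.0, 15.3 and 13.4 CPM with the PRDM16 virus. The IR+PR-LV libraries again held both the highest and the lowest value. The log2 fold change was -0.060 (95% interval -0.36 to 0.24, adjusted p = 0.898 from edgeR), and without IR+PR-LV replicate 3 it was 0.046.

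SIRT7, the sirtuin of the nucleolus, lies between 81911939 and 81918176 on the minus strand of chromosome 17. It had 20.3, 19.4 and 19.4 CPM with the control virus against 23.3, 18.1 and 17.3 CPM with the PRDM16 virus. The groups overlapped, with a log2 fold change of -0.013 (95% interval -0.28 to 0.26, adjusted p = 0.978 from edgeR). Its sign turned when 1 of 3 different libraries was left out, with values up to 0.066.

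SIRT3, SIRT6 and SIRT7 shared a pattern within the IR+PR-LV group. Each had its highest value of all 6 libraries in IR+PR-LV replicate 1 and its lowest in IR+PR-LV replicate 3. Genes outside the family had this pattern too. RBM10 had 80.5 CPM in IR+PR-LV replicate 1 and 60.2 CPM in replicate 3, and NPHP4 had 21.4 and 15.8 CPM. The share of all tested entries with this pattern was not counted. Across the 6 libraries, log2 CPM of SIRT6 and SIRT7 had a Pearson r of 0.847, SIRT3 and SIRT7 of 0.733, and SIRT3 and SIRT6 of 0.687, given as a description because the values share libraries. SIRT1 did not follow them, with r of 0.134 to SIRT6, -0.12 to SIRT7 and -0.62 to SIRT3.

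**Figure D1:**
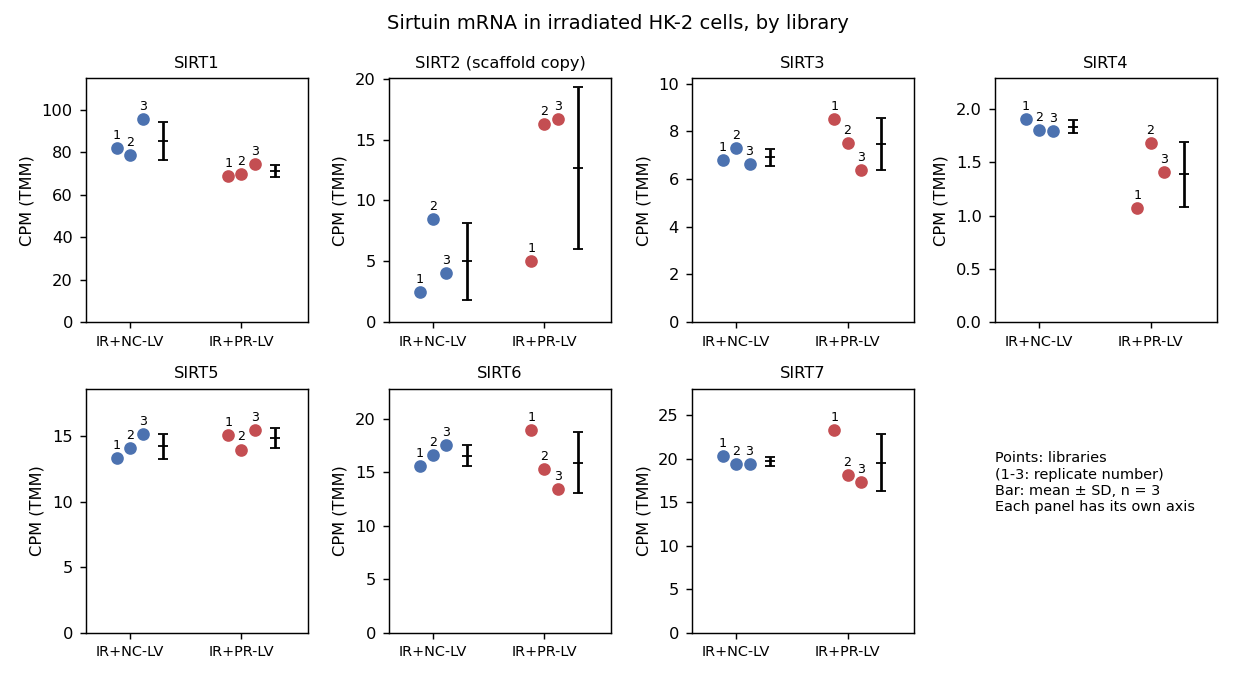
CPM of each sirtuin in every library, with the replicate number beside each point and the mean ± SD (n = 3) at its right, on a separate axis from 0 for each gene. The IR+PR-LV points lie below all IR+NC-LV points for SIRT1 and SIRT4, and IR+PR-LV replicate 1 is highest for SIRT3, SIRT6 and SIRT7.

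Across the family, 0 of the 7 sirtuin entries with enough counts passed the threshold in edgeR, and 0 passed in DESeq2. Among all tested entries 0.0196% passed as higher and 0.0456% as lower. The chromosome 19 entry of SIRT2 had no counts and was not tested. At an unadjusted p-value under 0.05, 2 of 7 sirtuins were found, beside 10.5% of all tested entries. SIRT1 was the 1 lower gene, where the share of all entries was 5.97%, and SIRT2 the 1 higher gene, where it was 4.55%. The libraries of the groups did not overlap for 2 of 7 sirtuins, beside 17.0% of all tested entries. Both were lower (9.54% of all entries) and 0 were higher (7.46%). The log2 fold change was below 0 for 4 of 7 sirtuins and for 48.9% of all tested entries. The median log2 fold change was -0.013 over the 7 entries and 0.0044 over all tested entries. It was -0.037 over the 6 sirtuins other than SIRT2.

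**Figure D2:**
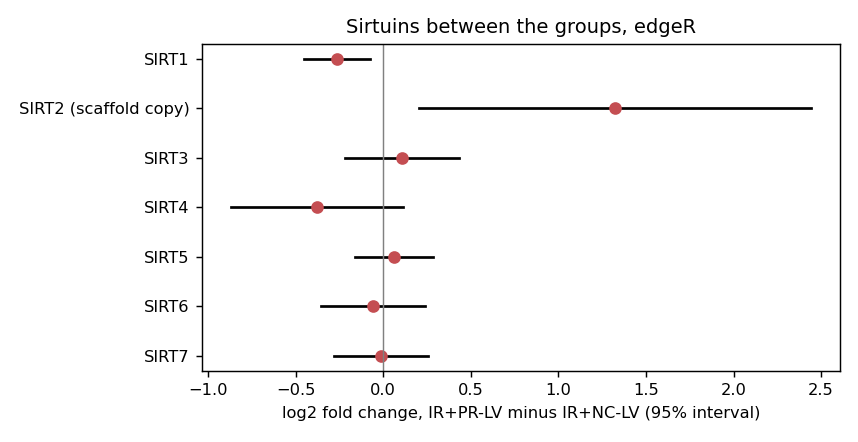
Log2 fold change of each sirtuin (IR+PR-LV minus IR+NC-LV) from edgeR (points) with its 95% interval (lines). The intervals of SIRT1 (-0.45 to -0.076) and of the SIRT2 copy (0.20 to 2.44) leave out 0, while those of the other 5 genes include it, and none of the 7 adjusted p-values passed the threshold.

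SIRT2, which deacetylates tubulin and histone H4, could not be measured in the same way as the other members. Its entry on chromosome 19 (38878555 to 38899733, minus strand) had 0 counts in all 6 libraries, which allows at most 0.105 to 0.224 CPM, depending on the depth of the library. These limits are set at 3 counts per library and cover counting error only. All reads assigned to SIRT2 were on the copy on the alternate scaffold (288227 to 309290, minus strand), with 41, 179 and 56 counts for the control virus against 84, 456 and 307 for the PRDM16 virus. That is 2.44, 8.50 and 4.03 CPM with the control virus against 5.002, 16.3 and 16.7 CPM with the PRDM16 virus. Libraries of the same group thus differed by over 3 times in both groups, and IR+PR-LV replicate 1 lay below IR+NC-LV replicate 2. The spread of log2 CPM within groups was 0.934 (SD), and only 0.958% of the tested entries had a larger spread. The log2 fold change was 1.32 (95% interval 0.20 to 2.44, adjusted p = 0.404 from edgeR). Without the filter on low counts the standard error fell from 0.496 to 0.251 and the adjusted p-value from edgeR was 0.000576. Leaving out IR+NC-LV replicate 2 raised the log2 fold change to 1.99, and leaving out replicate 1 of the same group lowered it to 0.99.

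The neighbours of SIRT2 showed the same division between entries. Of the 18 genes on the scaffold, 9 had at least 100 counts, and together these 9 held 22576 counts on the scaffold and 128 on chromosome 19, a chromosome 19 share of 0.564%. For all 9 the spread within groups was larger than the median of 0.136 over all tested entries, ranging from 0.290 for the F-box gene FBXO17 to 1.24 for the mitochondrial seryl-tRNA synthetase gene SARS2. The order of the libraries differed from gene to gene. ECH1, a peroxisomal and mitochondrial enzyme of fatty acid oxidation, had 2.27, 11.6 and 2.66 CPM with the control virus against 26.6, 16.0 and 23.2 CPM with the PRDM16 virus. EIF3K, a subunit of a translation initiation factor, had 6.44, 6.98 and 27.9 CPM with the control virus against 11.1, 17.7 and 16.4 CPM with the PRDM16 virus. How the counting treated reads with more than 1 location is not stated, so the level of SIRT2 and its difference between the groups are uncertain.

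**Figure D3:**
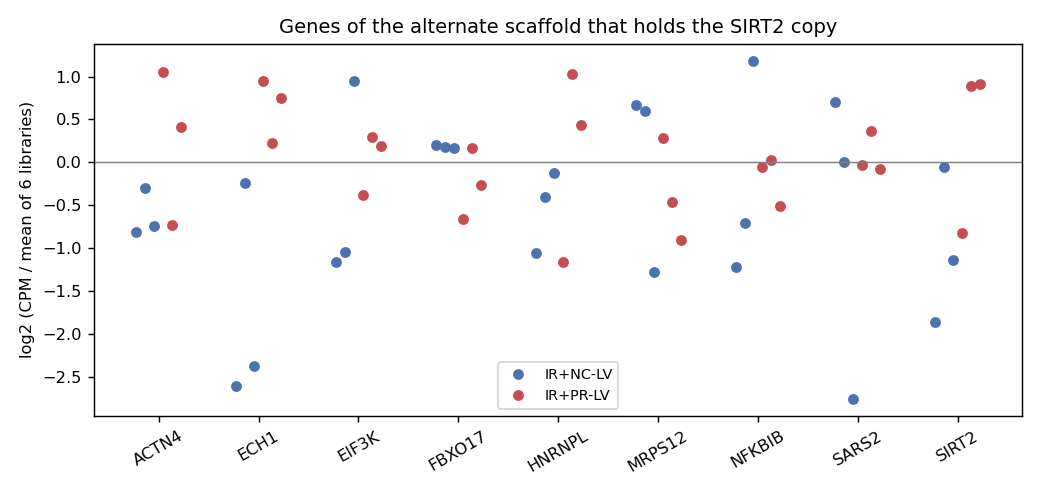
CPM of the 9 genes with at least 100 counts on the alternate scaffold, as log2 of the value over the mean of the 6 libraries, with 3 IR+NC-LV and 3 IR+PR-LV points per gene. The points of SIRT2, ECH1 and SARS2 spread widely within a group, and the highest library is not the same for all 9 genes.

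The starts of 4 of the 7 sirtuins lie within 1 kb of the start of a gene on the other strand, against 19.5% of the 34396 entries on chromosomes. For SIRT3 and SIRT6 the exons of that neighbour do not overlap the sirtuin, so both genes of the pair can be read from the counts. The windows below show these shared starts, each written along the sirtuin's strand from RefSeq (GRCh38.p14) with the bases between the first base of the sirtuin and that of its neighbour in capitals. The SIRT3 window is chr11:236882-237181 on the minus strand, with 40 bases between SIRT3 and PSMD13, and the SIRT6 window is chr19:4182514-4182813 on the minus strand, with 54 bases between SIRT6 and ANKRD24.
SIRT3: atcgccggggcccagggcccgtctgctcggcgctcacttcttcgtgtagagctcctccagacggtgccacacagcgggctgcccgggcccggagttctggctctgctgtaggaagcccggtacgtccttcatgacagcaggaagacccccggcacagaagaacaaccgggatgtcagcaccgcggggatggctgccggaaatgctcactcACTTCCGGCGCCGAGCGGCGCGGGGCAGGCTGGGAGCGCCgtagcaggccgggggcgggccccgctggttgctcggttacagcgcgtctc
SIRT6: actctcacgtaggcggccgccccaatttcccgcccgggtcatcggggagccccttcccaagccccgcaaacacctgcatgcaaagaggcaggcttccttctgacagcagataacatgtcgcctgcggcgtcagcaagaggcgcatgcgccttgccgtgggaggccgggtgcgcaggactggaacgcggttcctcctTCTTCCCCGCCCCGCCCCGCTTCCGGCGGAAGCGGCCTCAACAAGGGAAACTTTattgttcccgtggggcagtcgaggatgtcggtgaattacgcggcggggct
Both stretches in capitals hold the letters CTTCCGG, the reverse complement of CCGGAAG, which contains the core recognized by ETS factors. These letters were picked after the windows had been seen. On either strand they occur in 10.3% of the 35116 promoter windows of the same length, and among the 6 sirtuins in that table they occur in SIRT3 and SIRT6. The GC content of the windows is 69.3% for SIRT3 and 65.0% for SIRT6, beside a median of 58.7% over all windows.

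PSMD13, a subunit of the proteasome lid, had 121.3, 123.6 and 121.9 CPM with the control virus against 138.2, 129.5 and 126.5 CPM with the PRDM16 virus. Like SIRT3 it was highest in IR+PR-LV replicate 1, and over the 6 libraries its log2 CPM had a Pearson r of 0.813 with SIRT3. All 3 IR+PR-LV libraries were above the IR+NC-LV libraries, but with a log2 fold change of 0.10 PSMD13 did not pass the threshold (adjusted p = 0.579 from edgeR). ANKRD24 had 5.19, 5.89 and 7.13 CPM with the control virus against 7.80, 4.04 and 5.16 CPM with the PRDM16 virus, with a Pearson r of 0.766 to SIRT6 and a log2 fold change of -0.11 (adjusted p = 0.901 from edgeR). ANKRD24 was thus also highest in IR+PR-LV replicate 1, where SIRT6 peaked. SIRT7 peaked in that library too. Of the other entries with a mean of at least 10 CPM, 3.56% had an r above 0.9 with SIRT3 and 2.46% with SIRT6. Other pairs had a lower r. On the scaffold, the copies of SIRT2 and NFKBIB start 48 bases apart without exon overlap, and their r was 0.016. SIRT5 and LOC105374937 had an r of 0.513. Whether a shared start plays a part in these values was not tested.

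The remaining overlaps were small. The exons of SIRT3 share 84 bases, or 1.503% of its exon bases, with RIC8A on the other strand, and RIC8A had 84.7 ± 6.495 CPM with the control virus against 78.0 ± 6.91 CPM with the PRDM16 virus (SD, n = 3 each). SIRT5 shares 2.28% of its exon bases with LOC105374937 and 0.455% with LOC105374938, which had at most 25 and 9 counts in a library. On chromosome 19, NFKBIB overlaps 7.51% of the exon bases of SIRT2, and it had at most 1 count in a library there. Whether the counting used the strand is not stated, so reads in these stretches cannot be assigned with certainty.

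For each sirtuin, the entry with a mean of at least 10 CPM whose log2 CPM followed it most closely was found among the other such entries (9816 or 9817). For SIRT1 this was NR1D2, which codes for the nuclear receptor REV-ERB beta of the circadian clock, with a Pearson r of 0.999 over 6 libraries. NR1D2 had 157.0, 146.0 and 193.7 CPM with the control virus against 120.0, 123.7 and 134.9 CPM with the PRDM16 virus, so the libraries stood in the same order as for SIRT1. An r above 0.9 with SIRT1 was reached by 4.10% of the entries compared. The closest entries to the others were BNIP3L for SIRT2 (r = 0.994), DNPEP for SIRT3 (r = 0.997), PITHD1 for SIRT4 (r = 0.984), ING1 for SIRT5 (r = 0.986), RBM10 for SIRT6 (r = 0.995) and NPHP4 for SIRT7 (r = 0.997). With 6 libraries and this many entries such values are common, and they are given as a description.

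The genes that supply NAD+ were then examined, since sirtuins consume it. Of 25 genes of NAD+ synthesis and handling 18 had enough counts, and 0 passed the threshold in edgeR or DESeq2, with 0 at an unadjusted p-value under 0.05. Their median log2 fold change was -0.032, with 7 higher and 11 lower. For comparison, 10.5% of all tested entries fell under that unadjusted limit in edgeR, and 48.9% had a log2 fold change below 0. Whether 0 of 18 differs from the share of 10.5% was not tested. NAMPT, the rate-limiting enzyme of NAD+ salvage, was abundant, with 597.1, 622.9 and 576.6 CPM with the control virus against 568.2, 666.7 and 707.2 CPM with the PRDM16 virus. Its groups overlapped (log2 fold change 0.11, 95% interval -0.074 to 0.30, adjusted p = 0.684 from edgeR). NNMT, which methylates nicotinamide and so removes it from salvage, had 65.9 ± 4.91 CPM with the control virus against 65.3 ± 1.32 CPM with the PRDM16 virus (SD, n = 3 each). At a mean of at least 1 CPM, the lowest log2 fold changes were those of KMO of the kynurenine pathway (-0.41) and the aldehyde oxidase gene AOX1 (-0.13). The highest were those of the mitochondrial NAD kinase gene NADK2 (0.15) and of NAPRT (0.19), which has 2 listed copies. The entry genes of the de novo pathway, TDO2 and IDO1, had 3 counts each in the 6 libraries together.

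Among 17 tested genes of other NAD+-consuming enzymes, 0 passed in edgeR and 1 in DESeq2, and 2 were lower at an unadjusted p-value under 0.05, where 5.97% of all tested entries were lower. DESeq2, which was run without the filter on low counts used for edgeR, called 166 entries in all. The share that these make of the entries it tested was not computed. Its calls in this list and in those below therefore have no background share beside them. The 2 lower genes were PARP8 and TIPARP, both members of the family that transfers ADP-ribose to proteins. PARP8 had 44.5, 41.6 and 45.6 CPM with the control virus against 29.5, 34.2 and 34.3 CPM with the PRDM16 virus, with no overlap between the groups. Its log2 fold change was -0.42 (95% interval -0.61 to -0.23), with an adjusted p-value of 0.13 in edgeR and of 0.0135 in DESeq2. TIPARP had 149.3 ± 12.9 and 121.0 ± 6.63 CPM (SD, n = 3 each), and its log2 fold change was -0.30 (adjusted p = 0.236 from edgeR). PARP1, which uses NAD+ at DNA breaks, had 340.3, 336.2 and 325.4 CPM with the control virus against 395.8, 362.0 and 345.8 CPM with the PRDM16 virus. Its IR+PR-LV libraries were all higher, but the log2 fold change of 0.14 did not pass (adjusted p = 0.491 from edgeR). TNKS, with 2 listed copies, had a log2 fold change of 0.13. The NAD+ hydrolase gene CD38 had 19 counts in all and was not tested.

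Of 36 tested regulators and targets of SIRT1, 0 passed in edgeR and 2 were among the 166 calls of DESeq2. At an unadjusted p-value under 0.05, 2 were higher and 3 lower, beside 4.55% and 5.97% of all tested entries. The lowest was PPARGC1A, which codes for PGC-1alpha, the coactivator of mitochondrial biogenesis. It had 19.6, 16.0 and 22.2 CPM with the control virus against 11.9, 11.4 and 10.5 CPM with the PRDM16 virus. The groups were well apart, with a log2 fold change of -0.77 (95% interval -1.06 to -0.47). Its adjusted p-value was 0.0799 in edgeR, 0.000377 in DESeq2 and 0.0413 in edgeR without IR+NC-LV replicate 2. In edgeR, PPARGC1A did not pass with any other single library left out. It also did not pass with the other normalizations or with the replicate number as a block. CCAR2, the protein inhibitor of SIRT1, had 78.5 ± 3.42 and 79.5 ± 8.94 CPM (SD, n = 3 each), and the log2 fold change was 0.017 (adjusted p = 0.96 from edgeR). XRCC6, which codes for the repair protein Ku70, had 430.5 ± 1.32 and 497.5 ± 18.8 CPM (SD, n = 3 each), and the log2 fold change was 0.21 (adjusted p = 0.26 in edgeR and 0.0383 in DESeq2). The clock gene PER2 had a log2 fold change of -0.52 and the autophagy gene ATG5 of 0.17 (adjusted p = 0.515 and 0.473 from edgeR).

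In the 32 tested targets of the mitochondrial sirtuins, 24 had a log2 fold change above 0 and 8 below, with a median of 0.058 and with 0 past the threshold in edgeR or DESeq2. Of all tested entries 48.9% were below 0, with a median of 0.0044. Of the 32, 4 higher and 2 lower genes reached an unadjusted p-value under 0.05, beside 4.55% and 5.97% of all tested entries. GLUD1 codes for glutamate dehydrogenase, an enzyme whose activity, rather than mRNA, is what SIRT4 is known to repress. GLUD1 mRNA had 281.8, 282.4 and 283.7 CPM with the control virus against 303.2, 315.4 and 323.4 CPM with the PRDM16 virus. Its IR+PR-LV libraries were all higher, as in 7.46% of all tested entries. The log2 fold change of 0.15 did not pass the threshold (adjusted p = 0.397 from edgeR). SOD2 and IDH2, whose enzymes SIRT3 activates, had log2 fold changes in mRNA of 0.096 and 0.12 (adjusted p = 0.835 and 0.712 from edgeR). The highest values were those of SDHB of respiratory complex II (0.20) and of the fusion gene OPA1 (0.19), and the lowest those of the serine hydroxymethyltransferase gene SHMT2 (-0.22) and of MCCC1 (-0.18).

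Of 27 tested partners and targets of SIRT6 and SIRT7, 21 had a log2 fold change above 0 and 6 below, with a median log2 fold change of 0.086. The share of all tested entries below 0 was 48.9%. Of the 27, 0 passed in edgeR and 1 was among the 166 calls of DESeq2. At an unadjusted p-value under 0.05, 4 were higher and 0 lower, beside 4.55% and 5.97% of all tested entries. XRCC5, which codes for Ku80, had 460.9, 484.6 and 460.9 CPM with the control virus against 545.7, 558.4 and 537.9 CPM with the PRDM16 virus, clearly apart. Its log2 fold change was 0.22, with an adjusted p-value of 0.216 in edgeR and of 0.0212 in DESeq2. NPM1, a major nucleolar protein, had 1483.7 ± 95.6 and 1710.3 ± 48.6 CPM (SD, n = 3 each), and the log2 fold change was 0.20 (adjusted p = 0.34 from edgeR). ERCC6 had a log2 fold change of -0.18, and FBL, with 2 listed copies and between 11.98 and 88.8 CPM over the libraries, of -0.79 (standard error 0.62).

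The 16 tested targets of SIRT2 had a median of 0.047 and 0 past the threshold in edgeR or DESeq2, with 1 higher at an unadjusted p-value under 0.05 (4.55% of all tested entries were). This was LDHA (log2 fold change 0.70, standard error 0.26, adjusted p = 0.398 from edgeR), which has 2 listed copies. The copy used had 62.0, 66.1 and 93.3 CPM with the control virus against 71.9, 126.6 and 159.0 CPM with the PRDM16 virus. The groups thus overlapped, and how reads were divided between the copies is not stated. The values of PGAM1, FZR1 and TUBA4A were 0.12, -0.073 and -0.15.

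The families that share or oppose the chemistry of sirtuins were compared last. All 11 zinc-dependent histone deacetylase genes were tested, and 0 passed in edgeR or DESeq2, with 1 higher at an unadjusted p-value under 0.05, beside 4.55% of all tested entries. That gene was HDAC2, with 279.8, 291.9 and 266.5 CPM with the control virus against 310.6, 329.9 and 345.5 CPM with the PRDM16 virus (log2 fold change 0.23, adjusted p = 0.274 from edgeR). HDAC1 had a log2 fold change of 0.12, HDAC9 of -0.17 and HDAC11 of -0.18. Their median of -0.0041 lay close to that of all tested entries. Of 20 tested lysine acetyltransferase genes 0 passed in edgeR or DESeq2, with a median of -0.045 and 1 gene, HAT1, higher at an unadjusted p-value under 0.05, again beside 4.55% of all entries (log2 fold change 0.24, adjusted p = 0.428 from edgeR). The values of ACAT1 (0.16), KAT2B (-0.24) and KAT6B (-0.27, with 2 listed copies) also did not pass.

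**Figure D4:**
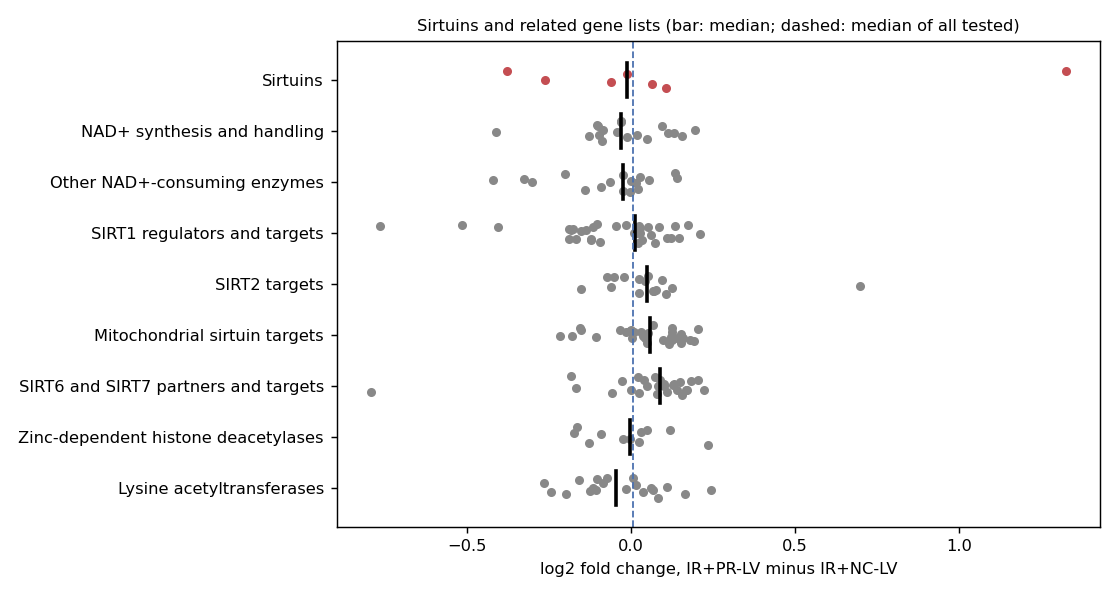
Log2 fold change of every tested member of the sirtuins (7) and of 8 related gene lists, with a bar for the median of each list and a dashed line for the median of all tested entries (0.0044). The medians lie between -0.045 and 0.086, and the sirtuin point at 1.32 is the scaffold copy of SIRT2.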

How the data were processed

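Poly(A)-selected RNA of 6 libraries (3 IR+NC-LV, 3 IR+PR-LV) was sequenced by the study in paired reads. Per the labels, the processing notes name CASAVA, featureCounts 2.0.1, DESeq2 1.16.1 and hg38. The aligner, annotation release, strand setting and treatment of reads with several locations are not given in the sources used here. The deposited files hold, for each entry, the raw count, a TPM and an FPKM by the authors. The deposited TPM follows from the count and the summed exon length, and the deposited FPKM was not used.

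Groups were taken from the sample titles. Counts were compared with edgeR 4.0.16 in R 4.3.3 (filterByExpr at its defaults, 10 counts per library and 15 in total, TMM factors 0.981 to 1.04, quasi-likelihood test, no covariates) and Benjamini-Hochberg adjustment over 15340 entries. Standard errors and 95% intervals were derived from the quasi-likelihood F statistic. Log2 CPM used a prior count of 2. The procedure was tested on simulated data. Total counts of 13407074 to 28540041 set the precision.

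Genes named were the sirtuins, PRDM16, NAMPT, NNMT, PARP1, CCAR2, SOD2, IDH2, GLUD1, the 2 highest and 2 lowest log2 fold changes of each list at a mean of at least 1 CPM, members past the threshold, genes overlapping a sirtuin or starting within 1 kb, and the closest pattern at a mean of at least 10 CPM. Other genes (ECH1, EIF3K, FBXO17, SARS2, CD38, IDO1, TDO2, LRP2, SLC22A6, GGT1, MME, AQP1, ITGAM, CD14) were named after their values were seen. A further gene that the rule names is not reported here. Where a gene had several copies, the most abundant copy was used. The members and lists were chosen with earlier results of these data known. Alternatives were DESeq2 1.42.0, normalization by RLE or by upper quartiles, other filters, the replicate number as a block, libraries left out, summed copies, a threshold of 0.1 and, chosen after seeing the data, GENCODE transcript lengths.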

Additional observations from a re-analysis of the deposited data

How the results depend on the processing

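Of the 7 sirtuins, 0 passed the threshold under any setting except the removal of the filter on low counts, where 1 passed, the SIRT2 copy (log2 fold change 1.33, adjusted p = 0.000576 from edgeR). The number of all entries past the threshold was 10, and became 166 with DESeq2, 342 without the filter, 3 with the replicate block, 58 at an adjusted p-value under 0.1, and 1 to 28 with each library left out (1 without IR+PR-LV replicate 3 and also without IR+NC-LV replicate 1, 28 without IR+NC-LV replicate 2, 16 without IR+NC-LV replicate 3). The cause was not tested. The sign of SIRT6 turned without IR+PR-LV replicate 3 (0.046, range -0.20 to 0.046 with each library left out). That of SIRT7 turned without IR+NC-LV replicate 1 (0.0060), IR+PR-LV replicate 2 (0.043) and IR+PR-LV replicate 3 (0.066, range -0.15 to 0.066). SIRT1 kept its sign in 13 of 13 alternatives with adjusted p-values from 0.179 to 0.799, as did SIRT2 (0.000576 to 0.842), SIRT3, SIRT4 and SIRT5.

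In the gene lists, DESeq2 called 1 other NAD+-consuming enzyme (PARP8), 2 regulators and targets of SIRT1 (PPARGC1A, XRCC6) and 1 partner of SIRT6 and SIRT7 (XRCC5). Without the filter the calls were 2 (PARP8, TIPARP), 1 (PPARGC1A), 1 target of SIRT2 (LDHA) and 1 acetyltransferase (ATAT1). With each library left out, the regulators and targets of SIRT1 had 0 to 1 calls.

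Same-numbered libraries of the 2 groups deviated together with correlations of -0.0088, 0.051 and 0.071, so the numbers were not taken as pairs. With the replicate block the log2 fold change of SIRT1 was -0.26 (adjusted p = 0.288 from edgeR) and 0 sirtuins passed. Depth limits SIRT4 most, with 186 counts in all, and SIRT2 is limited by its copies.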
